A study of Mus musculus with 24 samples.

Results

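The genes described here are 48 interferon-stimulated genes, listed by symbol and taken as the rows of a raw count table whose Ensembl mouse identifiers carry those symbols. All 48 were found among the 55487 genes of the table, and all 48 were among the 14099 genes with enough counts to be tested. RNA came from co-cultures of bone-marrow-derived macrophages (BMDMs) with spleen lymphocytes of mice with tumours of B16-F10-OVA, an ovalbumin-expressing mouse melanoma line. The macrophages were Tmem175-/- (called KO below) or WT, and each genotype was sampled without antigen, with B16-F10-OVA tumour cell antigen, and with that antigen plus IL-1β or plus IL-18, each at 500 pg/ml. This made 8 groups of 3 libraries, KO and WT in each of the 4 conditions. The lymphocytes came from tumour-bearing mice in every group, and the labels give neither their genotype nor the age, sex or strain of the mice. Whether the 3 libraries of a group came from separate mice, macrophage preparations or wells is not stated, so p-values measure only the spread between these samples.

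Type I interferons bind the receptor Ifnar1/Ifnar2, whose kinases Jak1 and Tyk2 activate the complex ISGF3. This complex, which holds Stat2 and Irf9, binds interferon-stimulated response elements (ISREs) in the promoters of antiviral genes. Macrophages keep a low tone of this response and raise it when their sensors of nucleic acids or microbial products are engaged.

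The libraries held 17744540 to 24898552 counts each. Tmem175, which encodes a lysosomal ion channel, stood at 15, 14.1 and 14.6 CPM (counts scaled to library size with TMM factors) in the KO libraries without antigen, against 26.1, 25.5 and 24.4 CPM in WT libraries, and it was likewise lower in KO in the other 3 conditions (log2 fold changes -0.79, -0.91, -0.87 and -0.82). Its transcript was thus reduced but not lost in these mixed cultures. Gene counts show neither which cells the remaining transcript came from nor which part of it remained. The genotype field of 11 of the 12 KO samples names other, consecutively numbered genes, whereas the titles of all 12 name Tmem175. Below, differences are log2 fold changes ± SE from edgeR's quasi-likelihood fit of all 24 libraries, with p adjusted by Benjamini-Hochberg over all 14099 genes, and a gene is called at an adjusted p under 0.05.

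Promoters are shown because ISGF3 acts on such genes through the ISRE. RefSeq promoters on GRCm38.p6, 250 bases before to 50 bases after an annotated start, were at hand for 37 members. The motif GAAANNGAAA, which covers the ISRE core, was searched on both strands. It was present in a promoter of 19 of the 37 members (51.4%), against 1079 of 27025 genes (3.99%). Isg15 held 3 copies of it. The shorter motif TTCNNNGAA, which reads the same on both strands and covers the gamma-activated site, was present for 9 of the 37 members (24.3%) and for 9.55% of all genes. The motifs were counted separately, whether or not they overlapped. The first 6 members that hold the longer motif, in order of mean level among those given in full below, are printed 5′ to 3′ with the motif in capitals. The promoter of Ifitm3 lies at chr7:141010695-141010994, that of Trim30a at chr7:104446076-104446375 and that of Ifi207 at chr1:173741760-173742059, all on the minus strand. That of Slfn5 lies at chr11:82951852-82952151, of Stat2 at chr10:128270248-128270547 and of Ifit3 at chr19:34583279-34583578, all on the plus strand. In Ifitm3 and Trim30a the motif lies just after the annotated start, and in the other 4 before it.
Ifitm3: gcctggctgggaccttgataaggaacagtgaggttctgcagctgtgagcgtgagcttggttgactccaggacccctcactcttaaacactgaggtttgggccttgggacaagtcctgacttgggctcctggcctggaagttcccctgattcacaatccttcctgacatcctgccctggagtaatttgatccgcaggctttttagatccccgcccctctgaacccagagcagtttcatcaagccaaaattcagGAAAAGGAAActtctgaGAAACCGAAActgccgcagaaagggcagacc
Slfn5: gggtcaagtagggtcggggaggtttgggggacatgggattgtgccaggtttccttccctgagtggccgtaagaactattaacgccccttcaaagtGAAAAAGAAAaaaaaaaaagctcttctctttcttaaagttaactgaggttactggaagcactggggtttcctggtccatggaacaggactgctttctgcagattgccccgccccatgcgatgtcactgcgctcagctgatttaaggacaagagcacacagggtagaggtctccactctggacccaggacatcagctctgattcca
Trim30a: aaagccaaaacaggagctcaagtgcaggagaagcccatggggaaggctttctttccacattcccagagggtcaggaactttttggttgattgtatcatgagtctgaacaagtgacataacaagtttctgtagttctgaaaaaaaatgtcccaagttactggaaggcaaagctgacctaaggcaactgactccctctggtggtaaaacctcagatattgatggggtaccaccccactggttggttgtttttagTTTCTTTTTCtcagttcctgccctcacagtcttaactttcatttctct
Ifi207: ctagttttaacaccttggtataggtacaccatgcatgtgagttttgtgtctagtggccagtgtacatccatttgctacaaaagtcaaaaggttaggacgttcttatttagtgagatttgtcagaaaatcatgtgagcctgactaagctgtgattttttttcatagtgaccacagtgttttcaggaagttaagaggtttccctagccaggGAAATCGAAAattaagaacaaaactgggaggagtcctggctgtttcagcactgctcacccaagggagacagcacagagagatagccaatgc
Stat2: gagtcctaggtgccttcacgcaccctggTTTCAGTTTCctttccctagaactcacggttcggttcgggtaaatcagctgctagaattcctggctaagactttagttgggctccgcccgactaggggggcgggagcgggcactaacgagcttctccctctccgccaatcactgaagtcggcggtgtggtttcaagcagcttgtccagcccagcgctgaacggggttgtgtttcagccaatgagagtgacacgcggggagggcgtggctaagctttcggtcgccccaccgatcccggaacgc
Ifit3: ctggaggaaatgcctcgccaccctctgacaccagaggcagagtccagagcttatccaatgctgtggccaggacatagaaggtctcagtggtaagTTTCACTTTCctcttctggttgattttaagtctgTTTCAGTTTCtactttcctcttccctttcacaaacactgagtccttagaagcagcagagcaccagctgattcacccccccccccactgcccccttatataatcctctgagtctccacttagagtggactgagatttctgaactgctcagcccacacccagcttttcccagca

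Ifitm3 and Ifit3 hold 2 copies each, the others 1. A match is a description of the letters and does not show binding. Among members with a promoter at hand, 12 of the 19 with the longer motif and 6 of the 18 without it were called lower in KO cultures without antigen (median log2 fold changes -0.35 and -0.28), and that difference was not tested.

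Without antigen many interferon-stimulated genes were lower in KO than in WT cultures. Of the 48, 22 were called lower and 0 higher, against 7.25% and 9.62% of all tested genes, and the log2 fold change was negative for 45 (median -0.33, against 0.0062 for all tested genes). At an unadjusted p under 0.05 there were 34, and DESeq2's Wald test called 25 lower and 1 higher (6.5% and 9.24% of all genes). The count was 7, 36 and 8 without KO replicates 1, 2 and 3 in turn, and 6 without WT replicate 2. All 3 KO libraries lay below all 3 WT libraries for 18 members, which was so for 13.6% of all genes. Called members ranged from Ifit3b, at -1.28, to Adar, at -0.17. In a bulk co-culture, fewer cells of a type and less RNA per cell cannot be told apart.

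**Figure D1:**
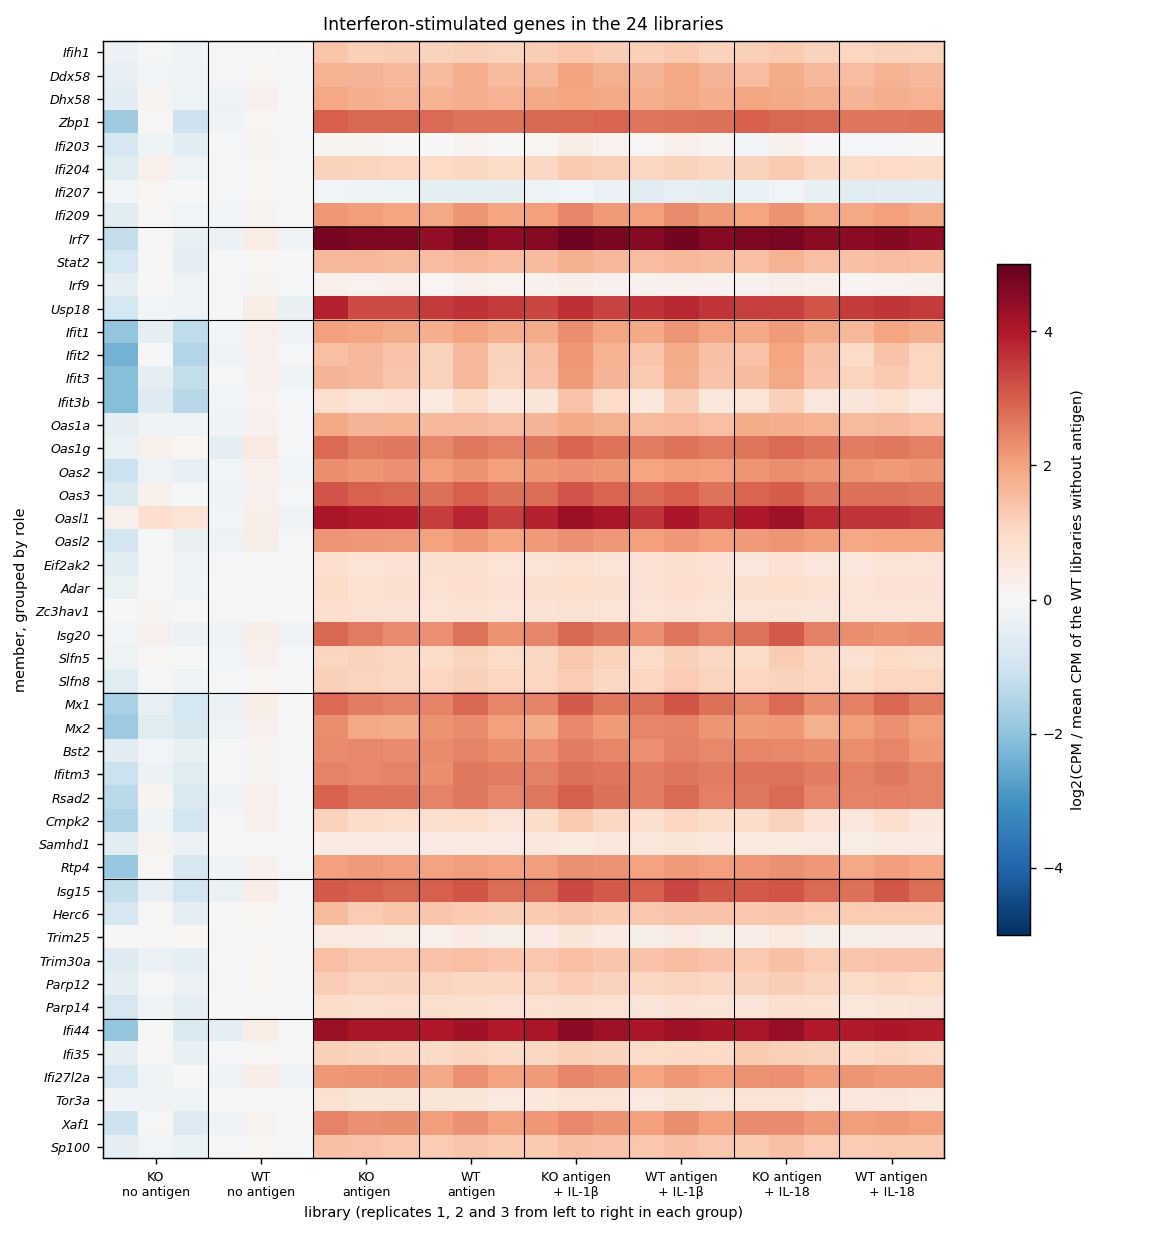
Each row is 1 of the 48 members, grouped by role, and each column 1 of the 24 libraries; colour gives log2 of CPM over the mean CPM of the 3 WT libraries without antigen. KO replicates 1 and 3 without antigen are the bluest columns, KO replicate 2 is close to WT, and almost every member is red in the antigen columns of both genotypes.

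The 3 KO libraries without antigen stood at different levels. KO replicate 1 was the lowest of the 3 for 45 members and replicate 2 the highest for 46, with replicate 3 between them for 43. In the WT group too, replicate 2 was the highest for 46 members and replicate 1 the lowest for 35. The spread there was narrower, with a median ratio of highest to lowest of 1.24, against 1.63 in the KO group. Relative to the WT mean, the median member stood at -0.68 (log2) in KO replicate 1, at -0.057 in replicate 2 and at -0.33 in replicate 3, while the median of all tested genes stood within 0.012 of 0 in each. Replicate 1 lay below all 3 WT libraries for 43 members and replicate 3 for 38. Replicate 2 did so for 19, lay above all of them for 6 and within their range for 23. The SD of log2 CPM between the 3 replicates had a median of 0.36 over the members in the KO group and 0.16 in the WT group, against 0.068 and 0.054 over 9904 genes with a mean of at least 2 on the log2 CPM scale. The widest member was Ifit2, at 31.6, 167 and 59 CPM, where replicate 2 was 5.27-fold above replicate 1, and 28 members had a ratio of at least 1.5.

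**Figure D2:**
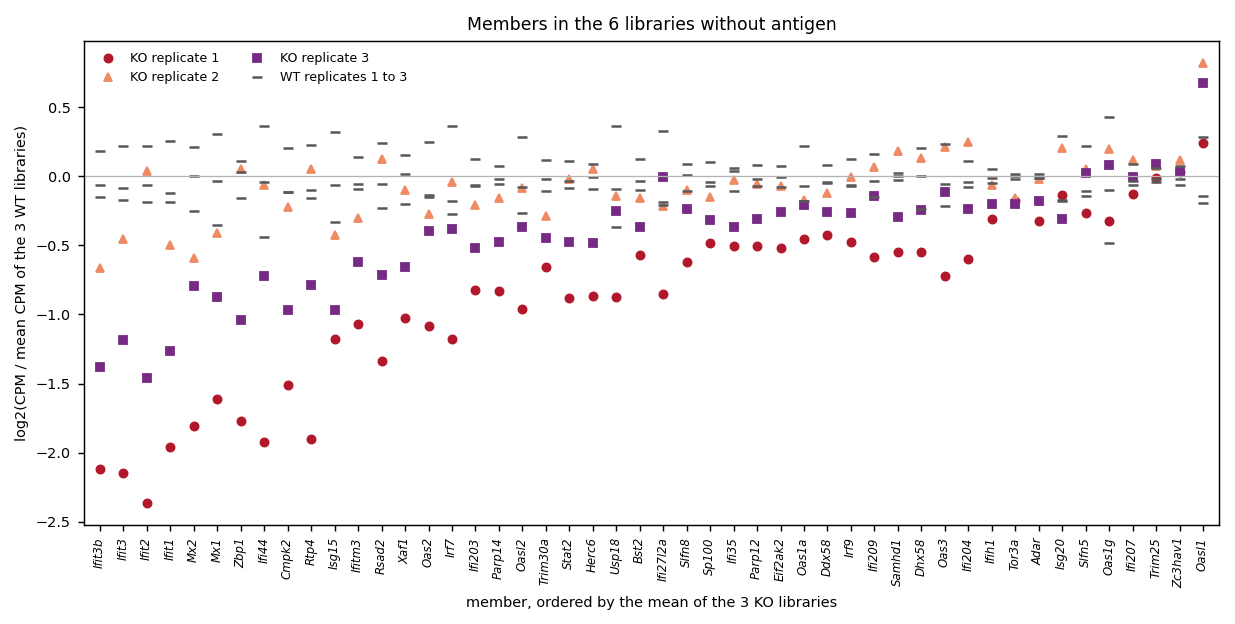
Each column is 1 member, and points give log2 of CPM over the WT mean in the 6 libraries without antigen, KO replicates as filled symbols and WT replicates as dashes. Among the KO libraries replicate 1 lies lowest for 45 of 48 members and replicate 2 highest for 46, so they form 3 levels and not 1. Among the WT libraries replicate 2 is also highest for 46, over a narrower range.

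The number called depended on which library entered the fit. Without KO replicate 1, 7 members were called lower (background 5.16%), all among the 22. Without KO replicate 3, 8 were called (4.47% of all genes), again all among the 22. Without KO replicate 2, 36 were called (8.42% of all genes), which included all 22 and 14 more. The WT libraries mattered too, since leaving out replicate 2, in which the members were highest, left 6 calls (5.67% of all genes called lower), while leaving out replicate 1 or 3 gave 22 (5.46%) and 15 (5.14%). The direction of the median log2 fold change did not turn in these 6 fits, in which it ran from -0.45 to -0.20. Single members that were not called, Ifi204, Ifi207 and Slfn5 among them, did turn in some of these fits. Fitting the 6 compared libraries alone gave 7 calls, 6 lower and Oasl1 higher, against 5.57% and 7.67% of all genes.

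**Figure D3:**
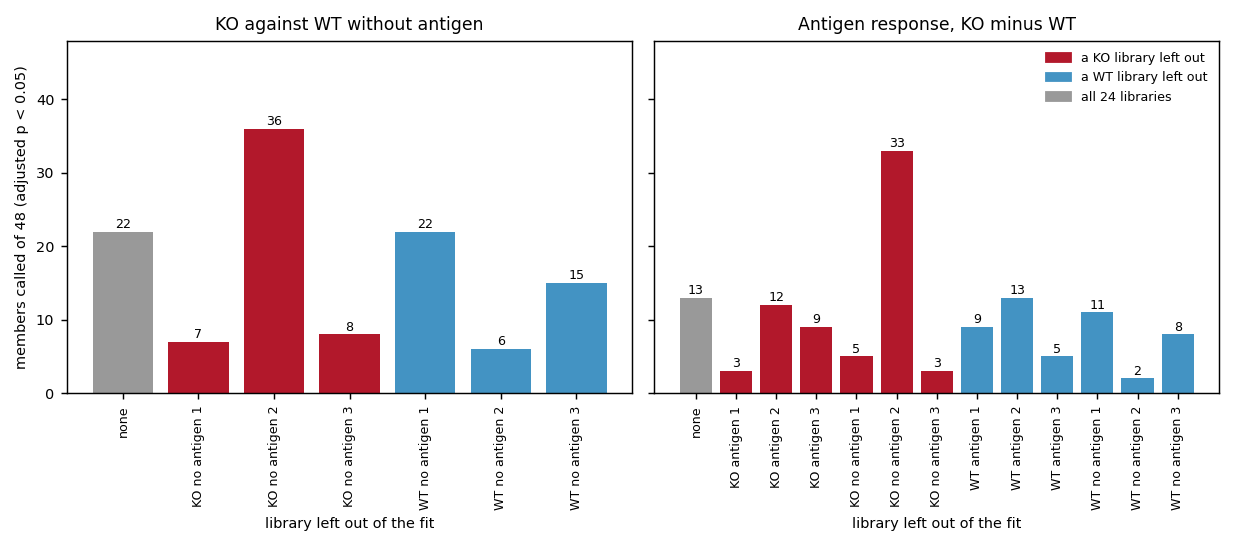
Bars count members called at an adjusted p under 0.05 with all 24 libraries and after leaving out 1 library, for KO against WT without antigen (left) and for the difference of the antigen response (right). Leaving out KO replicate 2 without antigen raises the count to 36 and 33, and leaving out KO replicate 1 lowers it to 7 and 5.

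Only 5 of the 22 calls were made in each of the 6 fits that left out 1 library. These were Ifit1, Ifitm3, Parp14, Trim30a and Sp100. Of these 5, only Trim30a was also called in the fit of the compared libraries alone. Ifit1, which binds foreign RNA and blocks its translation, stood at 5.7, 15.8 and 9.25 CPM in KO libraries, against 20.5, 26.6 and 19.6 CPM in WT libraries. The difference was 2.2-fold (log2 fold change -1.14 ± 0.26, adjusted p = 0.0053), with a range of -1.56 to -0.85 over the left-out fits. All KO libraries lay below all WT libraries for each of these 5 genes, although KO replicate 2 was always the nearest to WT.

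Among the 8 sensors of viral RNA and DNA, 2 were called lower, Ifih1 and Ifi203, and all 8 log2 fold changes were negative. Ifih1, a sensor of long double-stranded RNA, changed by -0.19 ± 0.064, adjusted p = 0.0479, a call made in 1 of the 6 left-out fits. Ifi203, of the HIN-200 family of interferon-induced nuclear proteins, changed by -0.50 ± 0.13, adjusted p = 0.0105, a call made in 4 of 6. Ifi204, of the same family, stood at 141, 253 and 181 CPM in KO libraries and 202, 229 and 207 CPM in WT libraries. KO replicate 2 was above every WT library and replicates 1 and 3 below, so the groups overlapped and the gene was not called (log2 fold change -0.16 ± 0.14, adjusted p = 0.533). Ifi207, another HIN-200 gene, stood at 299.6, 356 and 328 CPM in KO and 314, 349.8 and 320.0 CPM in WT libraries, with the 2 groups overlapping (log2 fold change -0.0017 ± 0.061, adjusted p = 0.997). Ifi209 stood at 35.6, 56 and 48.4 CPM in KO and 48.2, 59.8 and 52.1 CPM in WT libraries, and 24.3% of the 75-base windows of its longest transcript occur in other genes (20.8% for Ifi204), which leaves its counts uncertain. Its KO replicate 1 was again the low one, and the gene was not called (log2 fold change -0.20 ± 0.16, adjusted p = 0.486). Zbp1, which senses Z-form nucleic acid and can start necroptosis, stood at 11.8, 42 and 19.6 CPM in KO and 36.2, 43.7 and 41.3 CPM in WT libraries. Its replicate 2 lay among the WT values while replicates 1 and 3 did not, and the difference missed the threshold (log2 fold change -0.74 ± 0.26, adjusted p = 0.0589).

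The 4 transcription factors and feedback genes all had negative log2 fold changes, and Stat2 and Irf9, partners in ISGF3, were called lower. Stat2 stood at 60.2, 109.8 and 80.0 CPM in KO libraries, against 105, 120.1 and 108 CPM in WT libraries. Replicate 2 again lay inside the WT range, and the call was near the threshold (log2 fold change -0.42 ± 0.14, adjusted p = 0.0492), made in 1 of the 6 left-out fits. Irf9 changed by -0.24 ± 0.073, adjusted p = 0.0264, a call made in 3 of 6. Irf7, which amplifies the production of type I interferon, stood at 10.2, 22.5 and 17.8 CPM in KO and 19.1, 29.8 and 20.5 CPM in WT libraries, with overlap and no call (log2 fold change -0.47 ± 0.22, adjusted p = 0.174). Usp18, which removes Isg15 from proteins and damps the interferon receptor, stood at 2.21, 3.67 and 3.41 CPM in KO and 3.8, 5.21 and 3.15 CPM in WT libraries, low in both (log2 fold change -0.39 ± 0.33, adjusted p = 0.504).

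Of the 16 effectors acting on RNA or translation, 7 were called lower, namely Ifit1, Ifit3, Ifit3b, Oas2, Eif2ak2, Adar and Slfn8. Ifit3, a partner of Ifit1, stood at 7.66, 24.8 and 14.9 CPM in KO libraries, against 32, 39.6 and 30.2 CPM in WT libraries. Every KO value lay below every WT value (log2 fold change -1.12 ± 0.32, adjusted p = 0.0226), and the call was made in 3 of the 6 left-out fits. Ifit3 and Ifit3b share 41.1% of the 75-base windows of Ifit3's longest transcript, so how reads were split between them is uncertain. Ifit2, of the same family, stood at 31.6, 167 and 59 CPM in KO and 143, 189 and 155 CPM in WT libraries. Its log2 fold change was farther from 0 than that of Ifitm3, but replicate 2 lay among the WT values and the gene was not called (log2 fold change -0.93 ± 0.40, adjusted p = 0.132). Oas2, which makes the oligoadenylates that switch on RNase L, changed by -0.54 ± 0.15, adjusted p = 0.0144, a call lost only without WT replicate 2. Slfn5, of the Schlafen family, stood at 222, 277 and 272 CPM in KO and 243, 311 and 249 CPM in WT libraries, with overlap and no call (log2 fold change -0.057 ± 0.12, adjusted p = 0.82). The exception in direction was Oasl1, a repressor of Irf7 translation in mice, at 3.98, 5.96 and 5.39 CPM in KO and 3.06, 4.1 and 2.95 CPM in WT libraries. It had the highest log2 fold change of the 48 but was not called (log2 fold change 0.59 ± 0.33, adjusted p = 0.257), and Zc3hav1 and Trim25 were the other members with a positive value.

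The 8 effectors at membranes, capsids and nucleotide pools had the lowest median, -0.66, and 4 were called lower: Ifitm3, Mx2, Bst2 and Cmpk2. Ifitm3, which hinders the fusion of enveloped viruses, stood at 79, 135 and 108 CPM in KO libraries, against 156, 183 and 159.8 CPM in WT libraries. No KO value reached the lowest WT value, and the difference was 1.55-fold (log2 fold change -0.63 ± 0.14, adjusted p = 0.00352). Mx2, an antiviral GTPase, stood at 0.688, 1.6 and 1.39 CPM in KO and 2.02, 2.8 and 2.41 CPM in WT libraries, also without overlap (log2 fold change -0.98 ± 0.29, adjusted p = 0.0225). Mx1, its paralog, stood at 4.52, 10.4 and 7.54 CPM in KO and 10.9, 17.1 and 13.5 CPM in WT libraries, without overlap but not past the threshold (log2 fold change -0.90 ± 0.34, adjusted p = 0.0828). Samhd1, which degrades deoxynucleotides, stood at 500.0, 831 and 597 CPM in KO and 742, 733 and 719 CPM in WT libraries. Its 3 KO values spanned a range wider than all WT values, with replicate 2 above them and replicates 1 and 3 below, and it was not called (log2 fold change -0.19 ± 0.11, adjusted p = 0.298).

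Of the 6 ubiquitin-like and ADP-ribose modifiers and ligases, 4 were called lower: Isg15, Trim30a, Parp12 and Parp14. Parp14, an ADP-ribosyltransferase, stood at 209, 333 and 267 CPM in KO libraries, against 366, 391 and 357 CPM in WT libraries (log2 fold change -0.46 ± 0.11, adjusted p = 0.00533). Trim30a, a ligase of the TRIM family, stood at 91.9, 119 and 106 CPM in KO and 134, 157 and 142 CPM in WT libraries, the lowest adjusted p of the 48 (log2 fold change -0.46 ± 0.082, adjusted p = 0.000565). Both were apart from WT in every library. Isg15, the ubiquitin-like modifier itself, stood at 5.5, 9.27 and 6.38 CPM in KO and 9.92, 15.5 and 11.9 CPM in WT libraries, narrowly without overlap (log2 fold change -0.84 ± 0.26, adjusted p = 0.0361), and its call was made in 2 of the 6 left-out fits. Herc6, the main Isg15 ligase in mice, stood at 21.6, 40.9 and 28.2 CPM in KO and 39.3, 42 and 36.9 CPM in WT libraries, with replicate 2 inside the WT range and no call (log2 fold change -0.39 ± 0.15, adjusted p = 0.0806); 22.4% of the windows of its longest transcript also occur in another annotated gene, Gm45193.

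Of the 6 other interferon-induced genes, Sp100, Tor3a and Ifi35 were called lower. Sp100, a component of PML nuclear bodies, stood at 85.2, 108 and 95.8 CPM in KO libraries, against 116, 128 and 114 CPM in WT libraries (log2 fold change -0.31 ± 0.073, adjusted p = 0.00469). Tor3a, of the torsin family of ATPases, stood at 76.5, 77.4 and 75.1 CPM in KO and 85.5, 87.3 and 86.5 CPM in WT libraries. It was the named member whose 3 KO values lay closest together, and it was called in 5 of the 6 left-out fits (log2 fold change -0.18 ± 0.050, adjusted p = 0.0124). Ifi44 stood at 1.82, 6.6 and 4.18 CPM in KO and 5.08, 8.88 and 6.69 CPM in WT libraries, with overlap (log2 fold change -0.73 ± 0.34, adjusted p = 0.163). Ifi27l2a stood at 20.0, 31 and 36 CPM in KO and 31.2, 45.3 and 31.6 CPM in WT libraries. Here replicate 3, not replicate 2, was the highest KO library, and the gene was not called (log2 fold change -0.31 ± 0.18, adjusted p = 0.304).

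Genes of the pathway above the members were read from a list of 51, of which 31 were tested. In KO against WT cultures without antigen 3 were called higher and 7 lower, against 9.62% and 7.25% of all tested genes. Irf1, an interferon-induced transcription factor, stood at 119.6, 337 and 181 CPM in KO and 277, 273 and 291 CPM in WT libraries and was not called (log2 fold change -0.40 ± 0.22, adjusted p = 0.262). The order of its KO replicates was that of most members, with replicate 2 above WT. The receptor chains differed little: Ifnar1 was not called (log2 fold change -0.028 ± 0.040, adjusted p = 0.72) and Ifnar2 was lower (log2 fold change -0.13 ± 0.045, adjusted p = 0.0497). Sting1, the adaptor of the cytosolic DNA sensor, was lower at 35.2, 44.2 and 42.2 CPM in KO, against 50.4, 49 and 51.7 CPM in WT libraries (log2 fold change -0.32 ± 0.060, adjusted p = 0.000309). Those called lower also included Jak2, Ikbke, Tlr3 and Tlr9, and those called higher were Ifngr1, Il10rb and Irf5.

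The interferons themselves were almost unread. Of 18 type I interferon genes listed, 13 had no count in any library, none had enough counts to be tested, and all 18 together held 41 counts in the 24 libraries. Ifnb1 had 0 counts in all 6 libraries without antigen, and 3 counts, the limit that a count of 0 allows, correspond to 0.12 to 0.169 CPM over the 24 libraries. With antigen no library held more than 8 type I interferon counts. The difference between KO and WT libraries in these genes was not detectable at this depth. Ifng, which encodes type II interferon, stood at 0.0491, 0.16 and 0.314 CPM in KO libraries without antigen, against 0.444, 0.483 and 0.492 CPM in WT libraries, and was not called (log2 fold change -1.37 ± 0.56, adjusted p = 0.0992).

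Cell type markers also differed between the groups without antigen. The 9 macrophage markers summed to 13572 to 14037 CPM in KO libraries, against 18933 to 19416 CPM in WT libraries, with 2 called higher and 3 lower. Of 5 tested plasma cell markers 5 were higher, with sums of 350 to 406 CPM in KO and 136 to 145 CPM in WT libraries over 6 listed. The 6 markers of plasmacytoid dendritic cells, the main interferon-producing cells of blood and spleen, summed to 2.5 to 3.19 CPM in KO and 5.36 to 7.18 CPM in WT libraries, and 2 of 4 tested were lower. The 8 T cell markers summed to 19.8 to 21.1 CPM in KO and 51.6 to 56.7 CPM in WT libraries, with 1 of 8 called lower. The median log2 fold change was -0.044 for the T cell and -0.10 for the macrophage markers. Their sums therefore do not describe these lists as a whole. In these 4 lists no marker was at 0 in either group. Of the 5 B cell markers 3 were lower, with sums of 7.93 to 9.74 CPM in KO and 10.7 to 11.5 CPM in WT libraries. Of the 6 fibroblast markers 3 were lower, with sums of 11.1 to 26.4 CPM in KO libraries, where Lum was at 0, and 26.0 to 93.7 CPM in WT libraries. Conventional dendritic cell markers summed to 878 to 1080 CPM in KO and 539 to 634 CPM in WT libraries, with 1 higher and 2 lower of 5 tested. Their median log2 fold change was -1.05, opposite in direction to the sums. The medians went with the sums for plasma cell (2.33), plasmacytoid dendritic cell (-1.08), B cell (-0.33) and fibroblast markers (-1.67). Melanoma markers summed to at most 0.426 CPM in KO and 0.444 CPM in WT libraries, with Tyr, Dct and Tyrp1 at 0. The part of these markers in the members' result was not tested. The macrophage sums of KO replicates 1, 2 and 3 were 13572, 14037 and 13575 CPM. Conventional dendritic cell markers summed to 1080, 878 and 949 CPM in KO replicates 1, 2 and 3, against 634, 539 and 578 CPM in WT, and plasma cell markers to 406, 350 and 376 CPM in KO and 145, 136 and 145 CPM in WT. Both lists were lowest in replicate 2, where the members were highest. This was not particular to them. The T cell, B cell, plasmacytoid dendritic cell, neutrophil and fibroblast sums were also lowest in replicate 2 in both genotypes. The natural killer cell sum was so in KO only, and the macrophage sum in neither. With antigen the macrophage sums were 15035 to 17568 CPM in KO and 23989 to 24975 CPM in WT libraries. Of the 9 markers 2 were called higher and 1 lower there, with a median log2 fold change of -0.0012, so the sums do not describe the list as a whole.

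Antigen raised nearly all of the interferon-stimulated genes in both genotypes. In KO cultures 47 of 48 were called higher with antigen than without it and 1 lower, with a median log2 fold change of 2.05, against 33.8% and 34.6% of all tested genes called. In WT cultures 46 were higher and 1 lower, with a median of 1.58, against 33.5% and 34.5% of all genes. The median over all tested genes was 0.0057 in KO and -0.0032 in WT cultures. For 47 members in KO and 45 in WT cultures every antigen library lay above every library without antigen, which was so for 34.9% and 35.3% of all genes. Calls were made in each left-out fit except for Ifi207 in KO, lost without KO replicate 2 without antigen, and for Irf9 and Ifit3b in WT. Those were lost without WT replicate 1 or 3 without antigen or replicate 2 with antigen, and Irf9 also without replicate 3 with antigen. Cell type markers moved with antigen too. Conventional dendritic cell markers summed to 33.9 to 55.1 CPM with antigen in KO cultures, against 878 to 1080 CPM without it. In WT cultures they summed to 35.5 to 36.7 CPM with antigen, against 539 to 634 CPM. Of 5 tested, 2 were higher and 2 lower in KO cultures (median log2 fold change 0.83). In WT cultures 1 was higher and 1 lower (median 0.28), so the sums do not describe the list as a whole. Of 7 neutrophil markers 6 were lower and 1 higher in each genotype, with median log2 fold changes of -3.34 in KO and -4.04 in WT cultures. Neutrophil sums were 578 to 752 CPM with antigen in KO cultures, against 1308 to 1416 CPM without it, and 648 to 718 CPM with antigen in WT cultures, against 1222 to 1373 CPM. No marker of these lists was at 0, and their part in the members' rise was not tested.

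**Figure D4:**
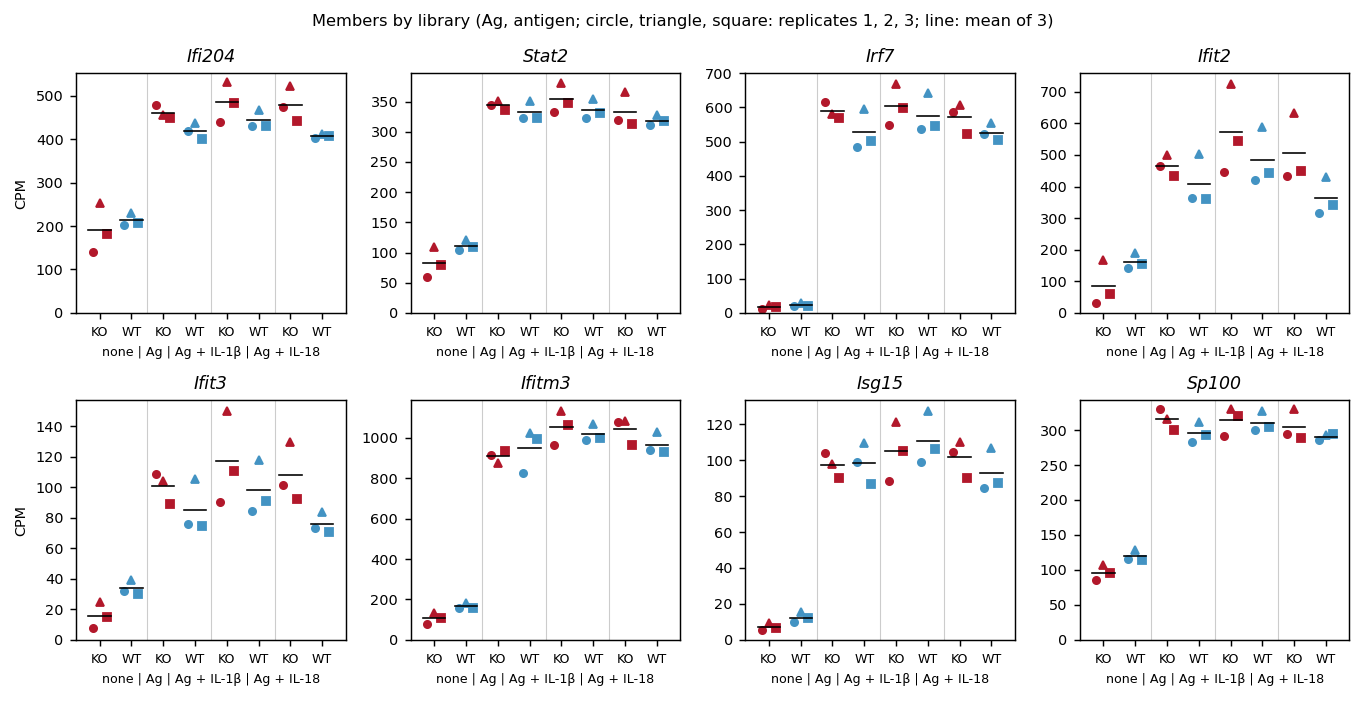
CPM of 8 members in the 24 libraries, KO in red left of WT in blue within each condition, with circles, triangles and squares for replicates 1, 2 and 3 and a line at the mean of 3. With antigen, the 8 genes stand above their level without it in both genotypes, and the KO and WT values of most lie close together.

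The transcription factor Irf7 had the largest rise of the 48 in both genotypes. With antigen it reached 616, 581 and 568 CPM in KO libraries, against 16.8 ± 6.19 CPM without it (SD, n = 3), a 35.1-fold rise (log2 fold change 5.13 ± 0.20, adjusted p = 2.32e-13). In WT libraries it reached 485, 597 and 501 CPM, against 23.2 ± 5.81 CPM, a 22.8-fold rise (log2 fold change 4.51 ± 0.20, adjusted p = 8.53e-13). Stat2 reached 344, 351 and 336 CPM in KO and 322, 351 and 324 CPM in WT libraries with antigen (log2 fold change 2.05 ± 0.14, adjusted p = 4.08e-10 in KO, and 1.58 ± 0.14, adjusted p = 1.10e-08 in WT). Usp18 reached 58.8, 39 and 38.4 CPM in KO and 45.7, 49.6 and 45.3 CPM in WT libraries, 14.7-fold and 11.5-fold higher than without antigen. Irf9 rose least of the 4, by 0.47 in KO and 0.18 in WT cultures.

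Among sensors of nucleic acids 7 of 8 rose in KO cultures and 6 of 8 in WT cultures. Zbp1 reached 319, 298 and 294 CPM in KO and 286, 265 and 265 CPM in WT libraries with antigen (log2 fold change 3.65 ± 0.24, adjusted p = 3.81e-10 in KO, and 2.75 ± 0.23, adjusted p = 8.41e-09 in WT). Ifi204 reached 479, 456 and 449 CPM in KO and 419.7, 438 and 401 CPM in WT libraries, and Ifi209 243, 227 and 208 CPM in KO and 206, 249 and 207 CPM in WT libraries. Their rises were 2.41-fold and 4.84-fold in KO cultures and 1.97-fold and 4.14-fold in WT cultures. Ifi207 went the other way. With antigen it stood at 297, 287 and 275 CPM in KO libraries, against 328 ± 28.1 CPM without it (log2 fold change -0.20 ± 0.061, adjusted p = 0.00732). In WT libraries it stood at 237, 241 and 234 CPM, against 328 ± 19.1 CPM (log2 fold change -0.47 ± 0.062, adjusted p = 4.70e-07). Ifi203 was called higher in KO (log2 fold change 0.61 ± 0.13, adjusted p = 0.000356) and not in WT cultures (log2 fold change 0.047 ± 0.12, adjusted p = 0.752); the difference between these responses missed the threshold (0.56 ± 0.18, adjusted p = 0.0607).

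All 16 effectors acting on RNA or translation rose in both genotypes. Oasl1 rose most of them in both genotypes, by 3.40 in KO and 3.57 in WT on the log2 scale. Ifit2 reached 467, 500.2 and 432 CPM in KO and 364, 503 and 359.9 CPM in WT libraries (log2 fold change 2.45 ± 0.40, adjusted p = 3.80e-05 in KO, and 1.33 ± 0.39, adjusted p = 0.00555 in WT). Ifit3 reached 109, 104 and 89.3 CPM in KO and 76.1, 105 and 74.4 CPM in WT libraries (log2 fold change 2.69 ± 0.29, adjusted p = 2.87e-07 in KO, and 1.33 ± 0.27, adjusted p = 0.000281 in WT). Within WT, replicate 2 was the highest for both. Slfn5 reached 559, 599 and 552 CPM in KO and 511, 577 and 513 CPM in WT libraries, a 2.22-fold and a 2-fold rise.

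The effectors at membranes, capsids and nucleotide pools rose in 8 of 8 cases in each genotype. Ifitm3 reached 917, 873 and 937 CPM in KO and 827, 1026 and 994 CPM in WT libraries (log2 fold change 3.08 ± 0.14, adjusted p = 1.91e-12 in KO, and 2.51 ± 0.14, adjusted p = 2.37e-11 in WT). Mx1 reached 98.1, 80.9 and 78.2 CPM in KO and 77.1, 101 and 75.4 CPM in WT libraries, and Mx2 12, 9.09 and 8.65 CPM in KO and 11.3, 12.3 and 9.86 CPM in WT libraries. KO replicate 1 was the highest of the 3 KO libraries for both. Samhd1, the highest in CPM of the group without antigen, rose least, to 981, 981 and 967 CPM in KO and 978, 1006 and 981 CPM in WT libraries (log2 fold change 0.60 ± 0.11, adjusted p = 9.84e-05 in KO, and 0.43 ± 0.11, adjusted p = 0.0019 in WT).

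The modifiers and the remaining genes rose in all 12 cases in each genotype. Isg15 reached 104, 97.9 and 90.3 CPM in KO and 99, 109.6 and 86.8 CPM in WT libraries, 13.9-fold and 7.9-fold higher than without antigen. Parp14 reached 705, 667 and 679 CPM in KO and 688, 639.5 and 621 CPM in WT libraries, and Trim30a 413, 368 and 368 CPM in KO and 393, 410.3 and 374 CPM in WT libraries. Herc6 reached 117, 94.9 and 103 CPM in KO and 103, 98.1 and 93.2 CPM in WT libraries. Ifi44, with little RNA before, reached 137, 118 and 116 CPM in KO and 109, 125 and 109 CPM in WT libraries, 29.8-fold and 16.6-fold higher. Ifi27l2a reached 161, 165 and 172 CPM in KO and 134, 174 and 145 CPM in WT libraries. Sp100 reached 329.9, 316 and 301 CPM in KO and 284, 311 and 293 CPM in WT libraries, and Tor3a, the least responsive of its group, 145, 131 and 131 CPM in KO and 130.5, 133 and 123 CPM in WT libraries. In these 8 genes all antigen libraries lay above all libraries without antigen, and the KO and WT antigen values overlapped.

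Of the 31 tested pathway genes, 20 were called higher and 6 lower with antigen in KO cultures (33.8% and 34.6% of all genes). In WT cultures 18 were higher and 8 lower (33.5% and 34.5% of all genes). Socs3, a feedback inhibitor of cytokine receptors, rose 76.8-fold in KO and 39.1-fold in WT cultures, and Socs1, which blocks Jak kinases, 14.7-fold and 12.5-fold. Ifng reached 2.76, 2.93 and 2.25 CPM in KO and 2.71, 2.68 and 2.27 CPM in WT libraries, still a low level. Tyk2, Mavs, Tlr4, Tlr7, Irf5 and Il10rb were lower with antigen in both genotypes.

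The antigen response was called larger in KO than in WT cultures for 13 members. The log2 difference of the responses, KO minus WT, was positive for 47 of 48 (median 0.42, against -0.0061 for all tested genes), and the 13 calls were all higher, with 0 lower, against 3.79% and 4.6% of all genes. Unadjusted, 32 had a p under 0.05, and DESeq2 called 18 higher and 0 lower (3.66% and 4.96% of all genes). This difference uses the same 6 libraries without antigen as the comparison above, so the lower KO values there enter it directly. The largest called was Ifit3 (1.36 ± 0.40, adjusted p = 0.0474), followed by Ifit1 (1.21 ± 0.32, adjusted p = 0.024) and Cmpk2, a mitochondrial nucleotide kinase (1.03 ± 0.30, adjusted p = 0.0461). Sp100 had the lowest adjusted p (0.40 ± 0.10, adjusted p = 0.0152), and it was the only one of the 13 called in each of the 12 fits that left out 1 library. Without KO replicates 1, 2 and 3 without antigen in turn, 5, 33 and 3 were called, against 2.93%, 6.06% and 2.55% of all genes called higher. Leaving out WT replicate 2 without antigen left 2, a share of the members near the 2.8% of all genes. Leaving out WT replicate 3 without antigen left 8 (3.18% of all genes), KO replicate 1 with antigen 3 (2.92%) and WT replicate 3 with antigen 5 (3.12%). The other 5 left-out fits called 9 to 13, against 3.16% to 3.75% of all genes. Oasl1 was the member with the opposite sign (-0.17 ± 0.36, adjusted p = 0.848).

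**Figure D5:**
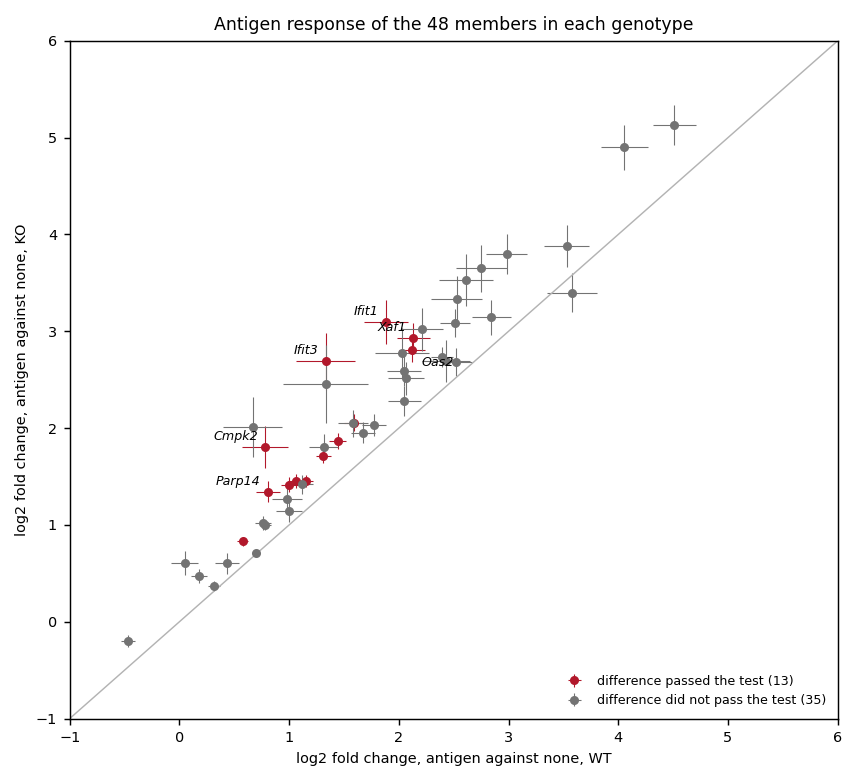
Log2 fold change of each member with antigen against without, in KO (vertical axis) and WT cultures (horizontal axis), with SE bars and the line of equal response; 13 members whose difference passed the test are red. Nearly all points lie above the line, and Ifit3, Ifit1 and Cmpk2 are among the farthest from it.

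With antigen few members differed between the genotypes. Of the 48 members 1 was called higher and 0 lower in KO against WT cultures, against 7.7% and 7.62% of all genes, and the median log2 fold change was 0.094, with 39 of 48 positive against 51.3% of all genes. At an unadjusted p under 0.05 there were 4, and DESeq2 called 1 higher and 0 lower (6.46% and 6.5% of all genes). All 3 KO libraries lay above all 3 WT libraries for 7 members, against 15.9% of all genes. The called gene was Ifi207, at 297, 287 and 275 CPM in KO libraries, against 237, 241 and 234 CPM in WT libraries (log2 fold change 0.27 ± 0.062, adjusted p = 0.00345), and the 6 left-out fits gave 0.24 to 0.30. For the other 21 members named with every value the log2 fold change lay between -0.17 (Mx2) and 0.24 (Ifit3). Among those not called were Irf7 (log2 fold change 0.16 ± 0.16, adjusted p = 0.594) and Ifitm3 (log2 fold change -0.062 ± 0.13, adjusted p = 0.819), whose KO values overlapped the WT range. The highest log2 fold change of the 48 was that of Oasl1 (0.42), also not called. Oasl1 stood at 56.9, 53 and 51.6 CPM in KO and 36.6, 47.3 and 36.2 CPM in WT libraries.

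Few members differed in the 2 conditions with added cytokine as well. With antigen and IL-1β, 1 member was higher in KO than in WT cultures and 0 lower, against 7.22% and 6.55% of all genes, with a median of 0.081 and 39 of 48 positive (51.2% of all genes). At an unadjusted p under 0.05 there were 3, and DESeq2 called 1 higher and 0 lower (6.43% and 5.72% of all genes). For 7 members every KO library lay above every WT library (16.1% of all genes). The called gene was again Ifi207, at 272, 301 and 270.4 CPM in KO libraries, against 222, 245 and 233 CPM in WT libraries (log2 fold change 0.27 ± 0.062, adjusted p = 0.00404). With antigen and IL-18, 4 were higher and 0 lower, against 9.89% and 10.3% of all genes, with a median of 0.12 and 42 of 48 positive (51.5% of all genes). Unadjusted, 7 had a p under 0.05, and DESeq2 called 5 higher and 0 lower (8.55% and 8.84% of all genes). For 18 members every KO library lay above every WT library (17.5% of all genes).

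In the IL-18 condition Ifi207 stood at 261, 297 and 253 CPM in KO libraries, against 217, 219 and 226 CPM in WT libraries (log2 fold change 0.29 ± 0.062, adjusted p = 0.00152). Ifi35 stood at 47.1, 44.3 and 42.9 CPM in KO and 37.6, 40.4 and 37.7 CPM in WT libraries (log2 fold change 0.21 ± 0.069, adjusted p = 0.0303). Oasl1 stood at 54.7, 64.3 and 44.4 CPM in KO and 39.7, 40.0 and 38.2 CPM in WT libraries (log2 fold change 0.46 ± 0.15, adjusted p = 0.0377). Isg20, an exonuclease, stood at 12.3, 15.7 and 10.8 CPM in KO and 9.37, 8.93 and 9.56 CPM in WT libraries (log2 fold change 0.47 ± 0.16, adjusted p = 0.0398). These 3 calls were lost when KO replicate 1 or 2 was left out, and when WT replicate 1 or 3 was left out, which left 1 call each time; without WT replicate 2 there were 2. The call of Ifi207 was made in each left-out fit of the 3 antigen conditions, with adjusted p at most 0.0257, 0.0336 and 0.0108. These comparisons use separate libraries of both genotypes. Ifi207 holds few windows shared with other genes, 2.84% of its longest transcript.

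Adding a cytokine to antigen moved no member past the threshold. For IL-1β, 0 of 48 were called in KO cultures, where 0.0426% of all genes were higher and 0% lower, and 0 of 48 in WT cultures, where 0.0284% were higher and 0.0284% lower. For IL-18, 0 of 48 were called in KO cultures, against 0.0496% higher and 0.163% lower of all genes, and 0 of 48 in WT cultures, against 0% and 0%. DESeq2 also called 0 in each of the 4 comparisons. At an unadjusted p under 0.05 there was 1 member in all, Zc3hav1, an antiviral RNA-binding protein, with IL-18 in KO cultures. The medians were 0.04 in KO and 0.064 in WT cultures for IL-1β, and -0.019 in KO and -0.047 in WT cultures for IL-18. These comparisons share the antigen libraries of their genotype.

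Irf7 ranged over 549 to 667 CPM in KO and 538 to 642 CPM in WT libraries with IL-1β, and over 524 to 606 CPM in KO and 505 to 553 CPM in WT libraries with IL-18. Ifit2, the most variable, ranged over 448 to 724 CPM in KO and 421 to 588 CPM in WT libraries with IL-1β, and over 434 to 634 CPM in KO and 315 to 431 CPM in WT libraries with IL-18. Ifitm3 ranged over 963 to 1133 CPM in KO and 989.7 to 1069 CPM in WT libraries with IL-1β, and over 966 to 1084 CPM in KO and 930.4 to 1027 CPM in WT libraries with IL-18. In each case these ranges overlapped those of antigen alone, except for Ifitm3 in KO cultures, which lay above them with either cytokine and was not called. Isg15 ranged over 88.3 to 121 CPM in KO and 98.9 to 127 CPM in WT libraries with IL-1β, and over 89.9 to 110.3 CPM in KO and 84.4 to 107 CPM in WT libraries with IL-18. Stat2 ranged over 333 to 381 CPM in KO and 323 to 355 CPM in WT libraries with IL-1β, and over 312 to 366 CPM in KO and 310.3 to 328 CPM in WT libraries with IL-18. Samhd1 ranged over 1036 to 1069 CPM in KO and 1064 to 1114 CPM in WT libraries with IL-1β, and over 993 to 1028 CPM in KO and 934 to 994 CPM in WT libraries with IL-18. Samhd1 too lay above the antigen-alone range in KO cultures with either cytokine and in WT cultures with IL-1β, and was not called, while Isg15 and Stat2 overlapped it. The between-replicate SD of log2 CPM had a median of 0.049 to 0.13 over the members in the 6 antigen groups, below the 0.36 of the KO group without antigen.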

How the data were processed

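Poly(A) RNA was extracted with Trizol, per the labels' protocols. The authors deposited raw counts per Ensembl gene for 24 libraries. Per the submitters' processing notes, reads were trimmed with fastp and the build was GRCm39; the aligner, counter and annotation release are not given in the sources used here. Symbols were matched by identifier (346 of 55487 had none), and transcripts for shared windows came from GENCODE vM21. Groups came from the sample titles. Genes passing filterByExpr (14099, holding 99.9% of counts) were scaled by TMM and fitted with edgeR 4.0.16 (quasi-likelihood, robust; R 4.3.3), with 1 coefficient per group and 16 residual degrees of freedom, and p was adjusted by Benjamini-Hochberg over all of them. The fit was tested on simulated data first. CPM use TMM-scaled library sizes, and log2 CPM a prior count of 2. Alternatives were DESeq2 1.42.0, RLE scaling, no filter, a non-robust fit, a replicate block, the compared libraries alone, and each library left out.

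The members and all lists were chosen with earlier results of these data known. Values in every library are given, per role, for the 2 members with the highest mean and the 2 with the widest replicate spread (22 in all), with ranges for cytokine groups, and for other members where a count singles them out. Some results on pathway genes are not reported here.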

Additional observations from a re-analysis of the deposited data

Results flagged for a closer look

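For 13 members the difference between the antigen response in KO and in WT cultures was itself called by edgeR's quasi-likelihood test. Each was higher in KO. The values, KO minus WT on the log2 scale with SE and adjusted p, follow by role.

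Among effectors acting on RNA or translation these were Ifit3 (1.36 ± 0.40, adjusted p = 0.0474), Ifit1 (1.21 ± 0.32, adjusted p = 0.024), Oas2 (0.69 ± 0.18, adjusted p = 0.0207) and Oas1a (0.47 ± 0.12, adjusted p = 0.0239). Ifit3 rose by 2.69 in KO and 1.33 in WT cultures, and Oas1a by 2.06 in KO and 1.59 in WT cultures. Oas1a shares 47.6% of the windows of its longest transcript with other genes, chiefly Oas1g, so its counts are uncertain. The sensor Ifih1 (0.30 ± 0.086, adjusted p = 0.032) and the nucleotide kinase Cmpk2 (1.03 ± 0.30, adjusted p = 0.0461) were also called.

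Among modifiers these were Parp14 (0.53 ± 0.15, adjusted p = 0.0338), Trim30a (0.42 ± 0.11, adjusted p = 0.0264) and Parp12 (0.39 ± 0.10, adjusted p = 0.0191). Among the other genes they were Xaf1, a promoter of apoptosis (0.80 ± 0.23, adjusted p = 0.0394), Ifi35 (0.41 ± 0.11, adjusted p = 0.0181), Sp100 (0.40 ± 0.10, adjusted p = 0.0152) and Tor3a (0.25 ± 0.069, adjusted p = 0.0198). Of the 13, 11 were also called lower in KO cultures without antigen, all but Oas1a and Xaf1, and 0 of the 13 differed between genotypes with antigen. Both comparisons share libraries with the difference, so this is a description.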

How the results depend on the processing

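The number of members called for KO against WT without antigen (22 as reported) was 7 with the compared libraries alone, and 6 to 36 when 1 library was left out. Of all genes, 5.57% were called lower and 7.67% higher with the libraries alone, and 4.47% to 8.42% lower with 1 left out. For the difference of the antigen response (13 as reported) it was 25 with the replicate block (5.14% of all genes called higher). It was 5 with the compared libraries alone (3.16%), and 2 to 33 when 1 library was left out (2.55% to 6.06%). For KO against WT with antigen (1) it was 2 in the non-robust fit (7.75% of all genes higher) and 2 with the replicate block (9.29%). It was 5 with the compared libraries alone (6.47%) and 1 to 2 with 1 left out (5.99% to 6.68%). With antigen and IL-1β (1) it was 2 without the filter (3.81% of all genes higher), 3 with the block (8.76%) and 4 with the libraries alone (7.48%). With antigen and IL-18 (4) it was 8 with the block (11.9% of all genes higher) and 10 with the libraries alone (8.67%). It was 1 to 4 with 1 left out (6.55% to 8.89%). The cause was not tested.

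The block used the replicate numbers, which no label ties to a shared mouse or batch. Deviations from the group means correlated above 0.1, a limit set for this check, in 30 of 84 same-numbered pairs of libraries. Over the 84 pairs the correlation ran from -0.045 to 0.28. Its median was 0.073 for same-numbered and -0.045 for different-numbered libraries, and over the members 0.30 and -0.20. Because deviations were taken from group means, different-numbered values fall where same-numbered ones rise, so they are no separate evidence. By the median, same-numbered libraries were more alike, and the labels do not settle whether they shared a factor. The fit reported above did not use the numbers, and a shared factor was not tested. Without antigen the block gave 28 calls, all lower, against 9.06% of all genes called lower.

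Among the 22 members given in full, signs in KO against WT without antigen and with antigen alone turned only for genes that were not called. Without antigen, Ifi207 was 0.0045 with RLE, 0.0045 with DESeq2 and 0.0097 without the filter. When 1 library was left out, Ifi204 ran from -0.41 to 0.024, Ifi207 from -0.064 to 0.059 and Slfn5 from -0.12 to 0.066. In KO against WT with antigen, Ifi209 ran from -0.025 to 0.13, Mx1 from -0.094 to 0.17, Usp18 from -0.28 to 0.068 and Isg15 from -0.0997 to 0.071.

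With 3 libraries a group, changes of low genes such as Usp18 and Mx2 are known only coarsely, and of type I interferon genes only as limits.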

Other observations

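Genes outside the 48 whose log2 CPM deviations from their group means followed the members' mean deviation most closely over the 24 libraries were H2-T24 (Pearson r 0.961), Lgals3bp (0.958), Ifi213 (0.954), Ifi211 (0.952), Trim30d (0.948), Ms4a6c (0.946), Mndal (0.944) and Fcgr1 (0.941), out of 9856 compared. Among them are HIN-200 genes (Ifi211, Ifi213 and Mndal), and Fcgr1, the high-affinity IgG receptor. The points share libraries and depth, and the values are a description. Over the 21 libraries other than the KO group without antigen the 8 values were 0.837 to 0.945. Fcgr1 stood at 239.6, 460.2 and 301 CPM in KO libraries without antigen, against 345, 389.6 and 342 CPM in WT libraries, with the same order of the KO replicates as the members.

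The library numbered 2 held the highest CPM of its group for 35 to 46 of the 48 members in 7 of the 8 groups, while among all tested genes it did so for 34.5% to 40.2%. In KO cultures with antigen it did so for 6, and replicate 1 for 40. In the KO group without antigen the 6 fibroblast markers summed to 26.4, 11.1 and 21.6 CPM in replicates 1, 2 and 3, and in the WT group to 93.7, 26.0 and 81.9 CPM, lowest in replicate 2 in both. The part of these markers in the members' values was not tested.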
